A study of Mus musculus with 6 samples.

Results

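Calorie restriction (CR) in the heart of 15-month-old mice was described through 695 miRNA features, out of 1114 features on the array that are named for mouse miRNAs. The 695 comprised 420 features that were measured on both middle-aged arrays and 275 with a value on the CR array but none on the array of mice fed ad libitum (AL). 1 other feature, miR-873a-3p, had a value on AL alone, at a signal of 0.00782, and 418 had none on either array. The middle-aged animals were male C57BL/6J mice, caged individually while their free intake was measured before the diet. They entered the diet at 12 months of age and were killed after 12 weeks. AL mice ate standard chow freely, whereas the food of CR mice was lowered stepwise until it stood at 60% of the AL ration. Each group was 1 array carrying RNA from a pool of ventricular tissue of 6 mice. AL and CR arrays of young mice (6 months old, diet from 3 months) and old mice (22 months old, diet from 19 months), made in the same way, were used to place the middle-aged pair. A pool hides the spread between animals, and with 1 array a side there was no replicate and no p-value: each difference given here is a difference between 2 hybridizations.

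A miRNA is a short RNA that guides an Argonaute protein to messenger RNAs and lowers their translation or stability. Pairing rests mainly on the seed, the stretch that follows the first base of the mature strand, so that miRNAs with the same seed form a family with overlapping targets. Mature strands are cut from the 5p or the 3p arm of a hairpin, and several hairpins are often transcribed together as a cluster. In the heart, miR-1 and miR-133 are made by striated muscle, and miR-208a and miR-499 lie in introns of myosin heavy chain genes. miR-126 is carried by endothelial cells, miR-142 and miR-223 by blood-forming lineages, and miR-451 by red blood cells.

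The mature sequences of the miRNAs on which the results turn are shown from 5′ to 3′, with the seed (bases 2 to 8) in capitals. The first group holds strands that were higher on CR than on AL, and it includes 3 strands of the clusters of miR-23, miR-24 and miR-27.

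miR-24-3p: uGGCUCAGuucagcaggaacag
miR-27b-3p: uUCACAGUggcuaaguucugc
miR-23a-3p: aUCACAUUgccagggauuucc
miR-499-5p: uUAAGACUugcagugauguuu
miR-15a-5p: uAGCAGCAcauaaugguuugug
miR-195a-5p: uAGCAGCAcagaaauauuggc

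The second group holds strands that were lower on CR. miR-103-3p and miR-107-3p are shown together since they share their seed and nearly all of the strand.

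miR-142a-3p: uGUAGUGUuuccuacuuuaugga
miR-346-3p: aGGCAGGGgcugggccugcagc
miR-290a-5p: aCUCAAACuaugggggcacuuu
miR-744-5p: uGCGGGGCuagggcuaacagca
miR-103-3p: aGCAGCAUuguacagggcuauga
miR-107-3p: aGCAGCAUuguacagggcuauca
miR-22-3p: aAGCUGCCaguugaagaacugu

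The third group holds 4 members of the let-7 family, which carry 1 seed and moved in different directions.

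let-7b-5p: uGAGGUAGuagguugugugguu
let-7g-5p: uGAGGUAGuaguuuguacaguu
let-7c-5p: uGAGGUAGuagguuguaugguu
let-7e-5p: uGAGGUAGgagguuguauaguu

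In RefSeq (mouse build GRCm38.p6), miR-23a-3p lies at chr8:84208563-84208583 and a copy of miR-24-3p, from Mir24-2, at chr8:84208875-84208896, both on the plus strand. miR-27b-3p lies at chr13:63300760-63300780 and the copy of miR-24-3p from Mir24-1 at chr13:63301251-63301272, within the bounds of Aopep. miR-499-5p lies within Myh7b (chr2:155622893-155622913), miR-346-3p within Grid1 (chr14:34894662-34894683) and miR-744-5p within Map2k4 (chr11:65734799-65734820, minus strand). miR-142a-3p lies at chr11:87756903-87756925. The strand of miR-103-3p is encoded within Pank3 (chr11:35782447-35782469) and Pank2 (chr2:131288103-131288125), and miR-107-3p within Pank1 (chr19:34820700-34820722). RefSeq sequences were found for 931 of the 1114 features and for 337 of the 420 with a value on both arrays.

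Signals are normalized intensities as the authors deposited them, and a feature was called at a ratio of CR to AL of 1.5-fold or more in either direction. A floor was set on each array from the features for viral miRNAs, RNAs that mouse heart does not make. It was the 95th percentile of those with a value, 11 of 55 on AL and 18 of 55 on CR, with blanks left out. The floor was 1.76 on AL and 1.29 on CR and rests on these few features. AL carried a value for 421 mouse miRNAs and CR for 695, against 586 to 741 on the 4 arrays of young and old mice, but 121 miRNAs were above the floor on AL and 143 on CR. Of all features on the array, named or not, 1127 had a value on AL and 1910 on CR, against 1666 to 2071 on the other 4 arrays. AL of the middle-aged mice thus had fewer values than any other array for mouse miRNAs and for all features.

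Of the 420 miRNAs with a value on both arrays, 233 (55.5%) differed by 1.5-fold or more. In 157 (37.4%) the signal was higher on CR and in 76 (18.1%) it was lower, with a median log2 ratio of 0.30 and an SD across miRNAs of 1.55. The split depended on the signal. Among the 111 miRNAs above the floor on both arrays, 46 (41.4%) were called, of which 12 (10.8%) were higher and 34 (30.6%) lower on CR, with a median of -0.19 and an SD of 0.712. Among the 267 below the floor on both arrays, 134 were higher and 33 lower, with a median of 0.61. Of the 42 above it on 1 array, 11 were higher and 9 lower. As deposited, the bright miRNAs leaned to lower signals under CR and the dim ones to higher signals, but the lean of the bright miRNAs turned with the scaling. Of the same 111 miRNAs, 32 were higher and 16 lower after quantile normalization, 34 and 16 after loess, 35 and 15 after spike-in scaling, 20 and 23 after scaling to small nuclear and nucleolar RNAs, 6 and 39 with each array divided by its median, and 11 and 34 with the median viral signal added to both arrays. Over all 420 miRNAs, the share of higher miRNAs among the calls is given for each: 67.4% as deposited, 56.8% after quantile and 57.3% after loess normalization, 60.4% with each array divided by its median, 77.9% after scaling to small nuclear and nucleolar RNAs and 83.7% after scaling to the spike-in RNAs. It was 52.8% with the median viral signal added.

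**Figure D1:**
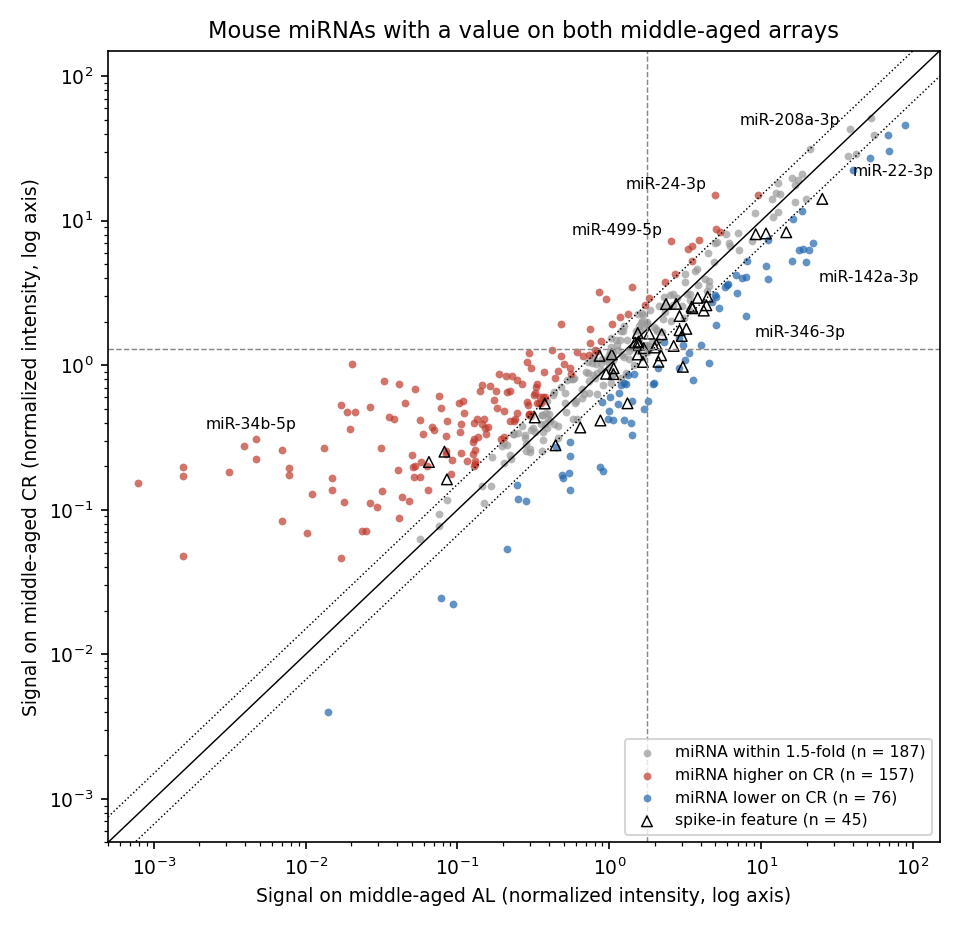
Signal of each of the 420 mouse miRNAs on the AL (x axis) and CR (y axis) array of middle-aged mice, normalized intensity on log axes. Dashed lines mark the floors of 1.76 and 1.29, the solid line marks equal signals, dotted lines mark 1.5-fold, and triangles are the 45 spike-in features, which do not come from tissue. Above both floors, as deposited, 34 miRNAs lie under the lower dotted line and 12 over the upper one.

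The features for spike-ins, synthetic RNAs that are no part of the tissue, were measured on the same arrays and gave a spread to set beside that of the miRNAs. Over 45 of them the median log2 ratio of CR to AL was -0.40 and the SD 0.662, with 3 higher and 16 lower by 1.5-fold. The median stayed below 0 under quantile (-0.24) or loess (-0.21) normalization and with signals divided by the array median (-0.52). Above the floor on both arrays there were 21 spike-ins, with a median of -0.55, an SD of 0.302 and a range from -0.96 to 0.17. The SD of the 111 miRNAs above the floor was larger, at 0.712, and 36 of them lay above the highest of these spike-ins, 60 within their range and 15 below the lowest. In the young pair the SD of miRNAs above the floor was 0.388 and in the old pair 0.251, against 0.226 and 0.287 for the spike-ins with a value on both arrays of those pairs. The middle-aged pair thus had the widest spread of the 3 ages in miRNAs and in spike-ins alike.

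The ratio moved with the signal. The 42 miRNAs with a mean signal under 0.1 had a median log2 ratio of 2.94 (SD 2.38), the 75 from 0.1 to 0.3 had 1.23, the 130 from 0.3 to 1 had 0.33, the 92 from 1 to 3 had 0.12, the 49 from 3 to 10 had -0.11, and the 32 at 10 or more had -0.36. The 3 spike-ins from 0.1 to 0.3 had a median of 1.62, the 8 from 0.3 to 1 had -0.48, the 26 from 1 to 3 had -0.42 and the 6 from 3 to 10 had -0.48. The median ratio was thus raised in the 3 weakest spike-ins but not in those from 0.3 to 1, and 0 spike-ins lay under 0.1. Ordered by AL signal instead, the weakest 5 spike-ins were all above 0, from 0.43 to 1.72, against 4 of the other 40. AL is the denominator of the ratio, so a low AL signal in itself favours a high ratio. The next weakest had -0.66 and -0.79, and no conclusion is drawn from this order. Results below the floor are given mainly as signals rather than as folds.

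**Figure D2:**
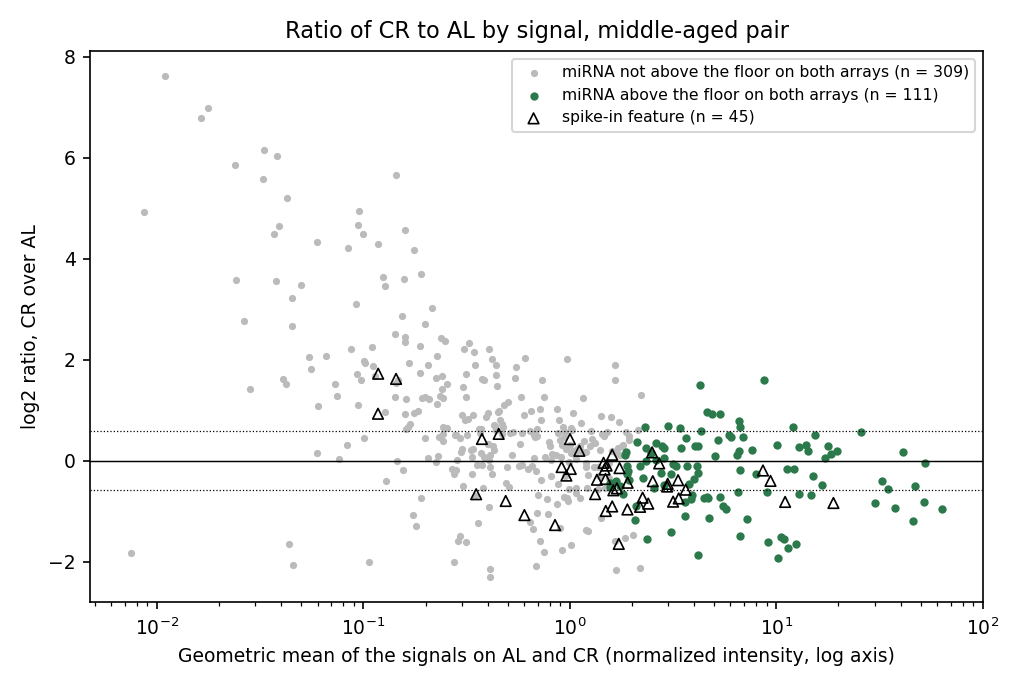
Log2 ratio of CR to AL in middle-aged mice (y axis) against the geometric mean of both signals (x axis, log). Green points are the 111 miRNAs above the floor on both arrays, grey points the other 309, and triangles the 45 spike-ins. Ratios of the 3 weakest spike-ins and of most, not all, miRNAs with a mean signal under 0.3 lie above 0, and the green points span -1.92 to 1.60.

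The muscle miRNAs did not move as a group. Of the heart markers, miR-208a-3p, miR-1a-3p, miR-133a-3p and miR-133b-3p were among the brightest features on both arrays, as the labelled tissue would have them. The markers miR-499-5p and miR-208b-3p were not. The signal of miR-208a-3p was 38.6 on AL and 43.3 on CR (log2 ratio 0.17). Those of miR-1a-3p, 37.3 and 28.1, and miR-133a-3p, 42.2 and 28.8, were lower on CR by less than 1.5-fold. miR-133b-3p fell from 68.7 to 39.0 (log2 ratio -0.82), a call that was lost after quantile, loess and spike-in scaling. miR-499-5p, the strand encoded in Myh7b, rose from 2.55 on AL to 7.23 on CR, or 2.84-fold. It stood at 2.29 and 1.35 on AL and CR of young mice and at 7.06 and 6.39 in old mice, so that AL resembled the young and CR the old arrays. Its partner strand miR-499-3p had signals of 0.0524 and 0.683, both below the floor. miR-208b-3p, encoded in the gene of the slow myosin Myh7, had no value on AL and 0.211 on CR, against none and 0.00635 in young and 0.603 and 0.544 in old mice. Of the 11 muscle features with a value on both arrays, 6 were higher and 1 lower, and the median log2 ratio was 0.63, compared with -0.12 for the 6 above the floor on both arrays, 1 of which rose and 1 of which fell. Over all 420 miRNAs 37.4% were higher and 18.1% lower, and the counts of this and the following lists are to be read beside those shares.

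The blood cell miRNAs gave the largest fall above the floor. miR-142a-3p, which is made in blood-forming cells, fell 3.78-fold, from 19.7 on AL to 5.22 on CR (log2 ratio -1.92). On the other arrays it was 1.73 (young AL), 0.764 (young CR), 5.60 (old AL) and 4.42 (old CR), so the AL array of middle-aged mice stood above the other 5. The other arm of the same hairpin, miR-142a-5p, was above the floor on AL alone, at 1.94 against 0.745 on CR, which gave at least 1.5-fold with CR set at its floor. miR-223-3p, a miRNA of granulocytes and macrophages, was 0.995 on AL and 0.484 on CR, both below the floor. Other dim members of the white cell list went the other way, with miR-155-5p at 0.0133 and 0.268 and miR-146a-5p at 0.0782 and 0.509. Of its 8 members with a value on both arrays, 3 were higher and 3 lower, with a median of 0.44, and 1 member, miR-142a-3p, was above the floor on both arrays. The red cell miRNA miR-451a fell from 40.3 to 22.6 (log2 ratio -0.84), a call lost under quantile, loess and spike-in scaling, and miR-144-3p, transcribed with it, was 3.13 and 4.28. The median of the 3 red cell features was -0.36, and 0.05 after spike-in scaling.

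The miRNAs of smooth muscle and fibroblasts were above 0 and the endothelial ones near 0. The signal of miR-126a-3p was 52.9 on AL and 51.6 on CR, and its partner miR-126a-5p was 11.9 and 10.7. Neither was called as deposited, though miR-126a-3p was called higher after quantile and loess normalization, and their median of -0.10 turned positive after quantile, loess, spike-in and small nuclear RNA scaling. miR-143-3p, a miRNA of smooth muscle, was 21.1 and 31.3 (1.48-fold higher on CR), just inside the threshold. The shared feature of miR-199a-3p and miR-199b-3p was above the floor on CR alone, at 1.94 against 0.481. All 8 smooth muscle and fibroblast features with a value on both arrays were above 0, 3 by 1.5-fold or more and 0 lower. The share called higher, 37.5%, was that of all 420 miRNAs (37.4%), and of the 2 features above the floor on both arrays 0 were called. The list median of 0.56 ranged from 0.38 to 0.97 over 11 other settings.

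Of the miRNAs linked to fibrosis, miR-21a-5p, which is raised in stressed and fibrotic hearts, fell from 7.98 on AL to 4.10 on CR, a call lost under spike-in scaling. It was 1.04 and 0.652 in young and 2.35 and 2.51 in old mice, so that the middle-aged AL array again stood highest. miR-29a-3p, whose family targets collagen messenger RNAs, fell from 18.6 to 11.7, a call lost under quantile, loess, spike-in and small nuclear RNA scaling. Its relative miR-29b-3p, with the same seed, was 9.10 and 11.3. The fibrosis list counted 2 higher, 2 lower and 4 within 1.5-fold, with a median of 0.31 beside 0.30 for all 420 miRNAs, and both falls were among its 6 members above the floor on both arrays.

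**Figure D3:**
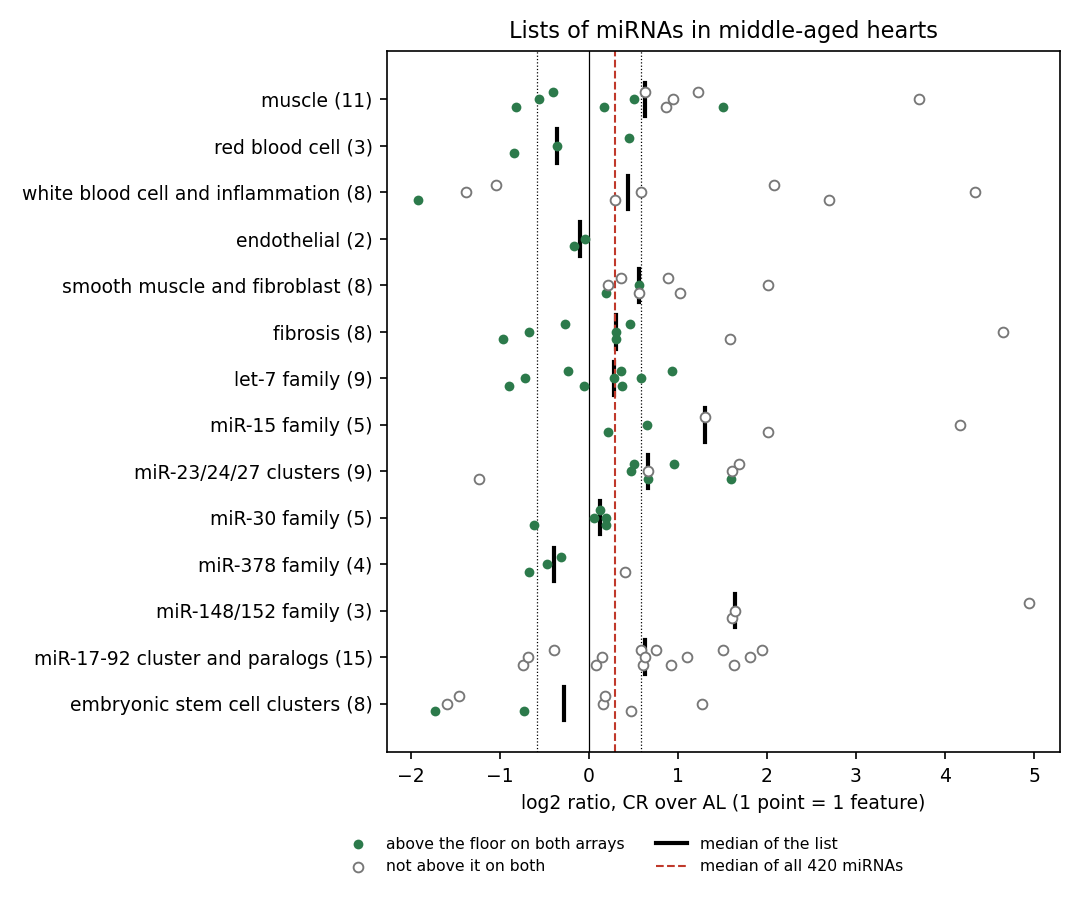
Log2 ratio of CR to AL for the members of 14 lists with a value on both middle-aged arrays (number in brackets). Green points are above the floor on both arrays, open points are not, black bars are list medians, the red dashed line is the median of all 420 miRNAs at 0.30 and dotted lines mark 1.5-fold. Members of most lists lie on both sides of 0.

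The miRNAs of the clusters of miR-23, miR-24 and miR-27 were higher on CR in 6 of 9 features, against 37.4% of all 420 miRNAs, and in 3 of 5 above the floor on both arrays, against 10.8% of 111. They are encoded in a pair of related clusters, on chromosomes 8 and 13 for the sequences shown above. miR-24-3p, which either cluster yields, had the largest rise of all miRNAs above the floor, from 4.99 on AL to 15.1 on CR, or 3.03-fold. It was 3.00 and 2.12 in young and 18.9 and 13.2 in old mice. miR-27b-3p rose from 3.30 to 6.41 (1.94-fold) and miR-23a-3p from 9.51 to 15.1 (1.59-fold). miR-27a-3p, at 5.12 and 7.11, and miR-23b-3p, at 12.9 and 18.3, were higher by less than 1.5-fold. The 5 strands above the floor thus all had ratios above 1, and each lay above the highest of the 21 spike-ins. Of these, miR-27a-3p and miR-27b-3p share a run of 18 bases, and how far their probes tell them apart was not tested. Of the 9 features with a value on both arrays 1, miR-27a-5p, was lower (0.552 and 0.234, below the floor), and the median of 0.67 ranged from 0.49 to 1.07 over 11 other settings. The rise of miR-23a-3p lost its call after division by the array median.

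The miR-15 family, whose members share the seed AGCAGCA and restrain cell cycle genes, was higher on CR as well. miR-15a-5p rose from 2.72 to 4.29, a call lost after division by the array median, and miR-16-5p was 7.05 and 8.21. miR-195a-5p was above the floor on CR alone, with 3.46 against 1.40, at least 1.97-fold higher with AL set at its floor. miR-15b-5p (0.209 and 0.843) and miR-497a-5p (0.0414 and 0.743) were below the floor. All 5 were above 0 and 4 were called higher, against 37.4% of all 420 miRNAs, with a median of 1.31 that was 0.44 for the 2 members above the floor on both arrays. In the family of miR-148 and miR-152 all 3 members were higher on CR but below the floor, from 0.421 to 1.28 for miR-148a-3p, from 0.306 to 0.957 for miR-152-3p and from 0.0172 to 0.530 for miR-148b-3p.

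The let-7 family, which opposes growth and pluripotency genes such as Hmga2 and Lin28, was divided. All 9 of its members were above the floor on both arrays. let-7b-5p rose from 3.89 to 7.41 (1.91-fold) and let-7g-5p from 3.53 to 5.30 (1.5-fold), while let-7c-5p fell from 6.88 to 4.19 (1.64-fold) and let-7e-5p from 2.86 to 1.53 (1.86-fold). The other 5 stayed within 1.5-fold. The median of 0.29 was close to the 0.30 of all 420 miRNAs but above the -0.19 of the 111 above the floor, the like set. It remained above 0 in 11 other settings. The sequences printed above show how alike the members are. let-7b-5p and let-7c-5p differ in 1 base and their log2 ratios differed by 1.65, whereas let-7c-5p and let-7e-5p differ in 2 bases and their ratios differed by 0.18. How far each probe binds the other family members was not tested. The call of let-7c-5p was lost under quantile, loess, spike-in and small nuclear RNA scaling, and that of let-7e-5p under spike-in scaling. The call of let-7g-5p lay on the threshold and was lost after division by the array median and with the viral median added.

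Other families kept closer together. The 3 members of the miR-30 seed GUAAACA, all above the floor, spanned 0.13 on the log2 scale around a median of 0.13, and miR-30d-5p, at 11.2 and 7.31, was the only one of 5 miR-30 features that was called, a call lost under quantile, loess, spike-in and small nuclear RNA scaling. The 3 members of the seed CCCUGAG (miR-125a-5p, miR-125b-5p and miR-351-5p) spanned 0.19 around a median of 0.26. The widest of the 11 seed families was that of miR-130a-3p, miR-130b-3p and miR-301a-3p, with a span of 5.17. In it miR-130a-3p rose from 1.84 to 2.93. The span was set by miR-130b-3p, at 0.915 and 0.185, and miR-301a-3p, at 0.0571 and 0.416, both below the floor. Ratios thus differed within some seeds more than within others. The seeds GUAAACA and CCCUGAG had 3 of 3 members above the floor and the widest family 1 of 3, and the part of signal in this was not tested. The miR-17-92 cluster and its relatives, which promote proliferation, had 0 members above the floor on both arrays. Of their 15 features with a value on both, 9 were higher and 2 lower, with a median of 0.63 that became -0.01 after quantile normalization. Of the miR-34 family 2 of 3 were higher, with the brightest, miR-34a-5p, at 1.61 and 1.98, and of the miR-181 family 1 of 3. The miR-378 family, of which miR-378a lies in a coactivator gene of energy metabolism, had 1 lower of 4, with a median of -0.39 that turned positive after loess and spike-in scaling. The large imprinted cluster of chromosome 12 had 9 higher and 4 lower of 24, near the shares of 37.4% and 18.1% over all miRNAs, with a median of 0.01 that changed sign under 6 of 11 other settings, and the X-linked cluster 7 and 2 of 13. The 43 miRNAs that the study text names, chosen by it on these arrays and so no independent evidence, had 20 higher and 3 lower of 26, of which 3 were above the floor on both arrays.

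Among the other miRNAs above the floor with the largest rises were miR-463-3p, of an X-linked cluster known from testis, from 3.52 to 6.73, and miR-709, from 5.03 to 8.72. miR-3962, miR-130a-3p and miR-26b-5p rose by 1.58-fold to 1.61-fold, and those calls were lost after division by the array median. miR-3962 shares a run of 17 bases with let-7g-5p. The 6 rises of miR-24-3p, miR-499-5p, miR-27b-3p, miR-463-3p, let-7b-5p and miR-709 held at 1.5-fold under every scaling tried.

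As deposited, the falls above the floor were larger in number and size than the rises, which turned under quantile, loess and spike-in scaling: after loess normalization the log2 ratios ran from -1.52 to 2.01. miR-346-3p fell from 7.93 to 2.19 (3.62-fold), miR-290a-5p, of a cluster of embryonic stem cells, from 20.6 to 6.25 (3.30-fold) and miR-744-5p from 22.1 to 7.01 (3.15-fold). On the other arrays miR-346-3p was 6.31 and 6.64 in young and 2.10 and 1.85 in old mice. miR-103-3p, whose host genes encode pantothenate kinases that start the synthesis of coenzyme A, fell from 18.7 to 6.36 (2.94-fold), and miR-107-3p from 17.8 to 6.25 (2.85-fold). These have 21 bases in a row in common, and how far the probes tell them apart was not tested. miR-1971, miR-1954, miR-767 and miR-673-3p completed the 10 largest falls, at 2.65-fold to 3.06-fold. All 10 were past 2-fold on the deposited values and held at 1.5-fold under every scaling tried. In 9 of the 10 the AL array of middle-aged mice was the highest of the 6 arrays. Picking large falls from AL in itself favours a high AL value. That array also had the largest summed mouse miRNA signal, 1428 against 792 to 1206 on the others. miR-22-3p, a miRNA of muscle that is raised in cardiac hypertrophy, was one of the brightest features and fell from 69.2 to 30.3 (2.28-fold), a call that quantile and loess normalization ended. Of the 10 brightest miRNAs on AL, 9 were also among the 10 brightest on CR.

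In the clusters known from embryonic stem cells, the 5p strands miR-290a-5p, miR-294-5p (5.95 and 3.60), miR-291a-5p (3.36 and 1.22) and miR-291b-5p (2.88 and 0.956) were the 4 members that fell, and the call of miR-294-5p was lost under quantile, loess, spike-in and small nuclear RNA scaling. The last 2 were above the floor on AL alone, at least 2.60-fold and 2.23-fold higher there. Of their 8 features with a value on both arrays 1 was higher and 4 lower, with a median of -0.28 that became 0.12 after spike-in scaling. The 3p strands were all below the floor: miR-291b-3p was 0.482 and 1.16, miR-302a-3p 0.579 and 0.803 and miR-290a-3p 0.279 and 0.316, while 4 others had a value on CR alone. Markers of other tissues were also near background: of 26 features for liver, neurons, epithelia and endocrine cells, 1 had a value on both arrays, 17 on CR only and 8 on neither, and 0 were above the floor. Liver-specific miR-122-5p had no value on either array.

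**Figure D4:**
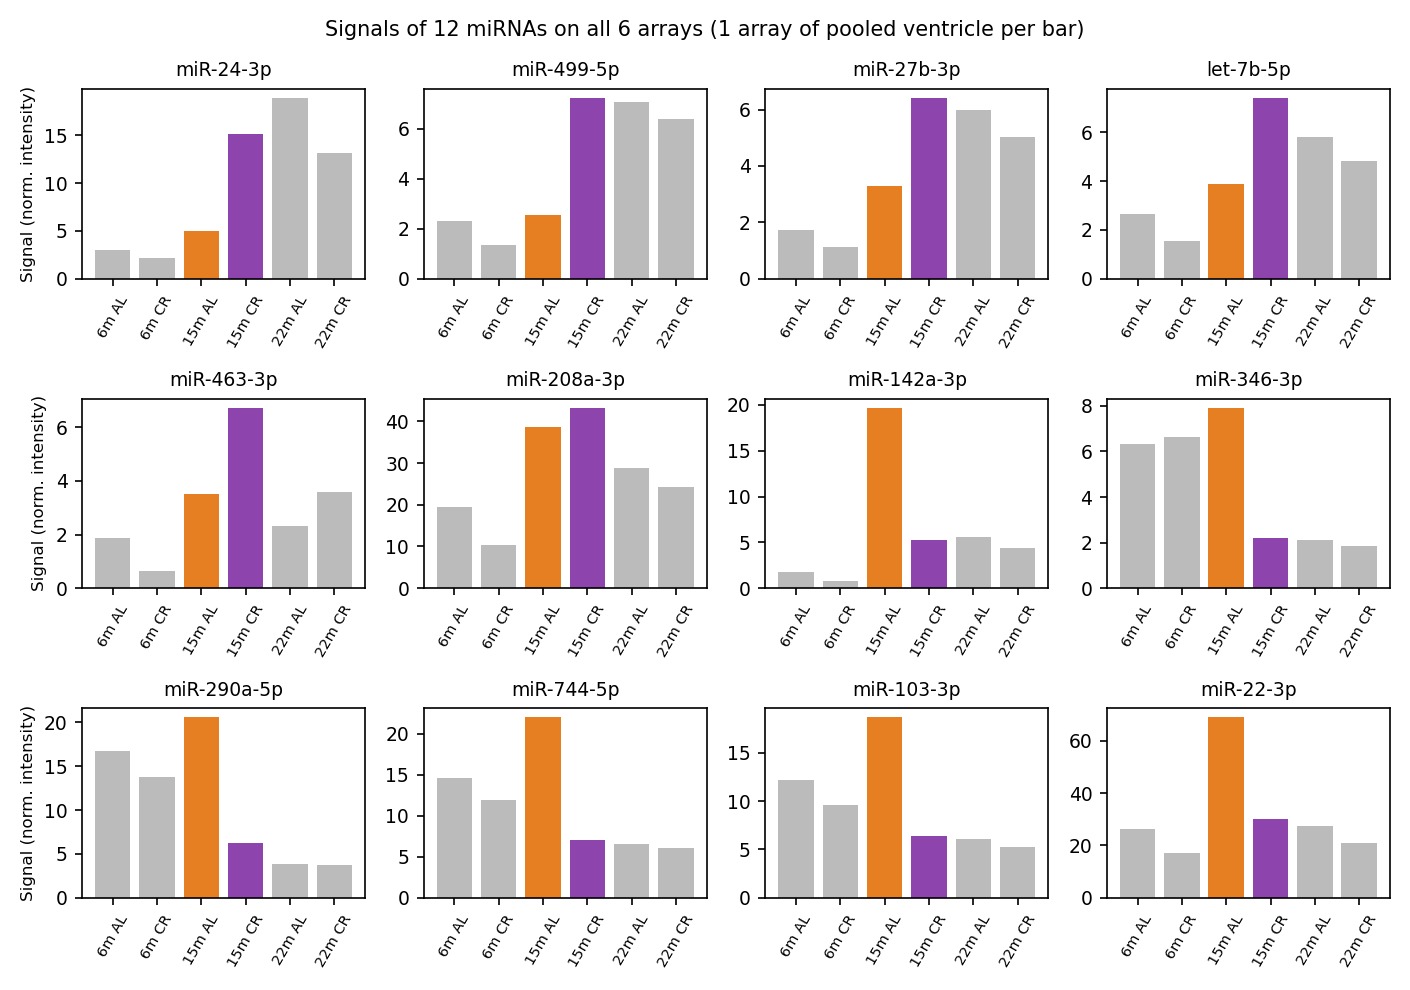
Signals (normalized intensity, bars from 0) of 12 miRNAs on the AL and CR arrays at 6, 15 and 22 months, 1 array per bar, with the middle-aged AL array in orange and CR in purple. For miR-24-3p and miR-499-5p the CR bar stands near the bars of old mice, for miR-346-3p the AL bar stands near those of young mice, and for miR-142a-3p the AL bar stands above the other 5.

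The 6 arrays side by side showed where the middle-aged pair lay. Across 415 miRNAs with a value on all 6 arrays, the CR array correlated at 0.956 and 0.960 (Pearson, log2 signals) with AL and CR of old mice, at 0.856 with AL of its own age and at 0.740 with AL of young mice. Of the 111 miRNAs above the floor, 88 had a CR signal within 1.5-fold of the mean of the old arrays, and 31 had an AL signal within 1.5-fold of the mean of the young arrays. The mean of the old arrays was at least 1.5-fold above that of the young arrays in all 12 rises and in 54 of the 111. It was at least 1.5-fold below in 19 of the 34 falls and in 25 of the 111, and at least 1.5-fold above in 5 of the falls, among them miR-142a-3p. Over the 111 miRNAs the ratio of CR to AL correlated at 0.743 with the ratio of old AL to young AL and at 0.704 with that of old CR to young CR, 2 ratios from arrays outside the pair.

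The spike-ins followed the same order of arrays. Over 45 spike-ins the ratio of middle-aged CR to AL correlated at 0.844 with old AL over young AL and at 0.824 with old CR over young CR. The spike-in signals of AL correlated at 0.980 and 0.981 with the young arrays and those of CR at 0.986 and 0.979 with the old ones, against 0.936 within the pair. These correlations are across features of single arrays, which share the hybridization and its scaling, and how much of the miRNA ratios moves with the array was not tested.

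Of the 10 largest rises, 9 were lower on CR than on AL in young mice and 9 in old mice. In young mice miR-24-3p, miR-499-5p, miR-27b-3p and let-7b-5p were lower on CR than on AL (3.00 and 2.12, 2.29 and 1.35, 1.72 and 1.12, 2.65 and 1.55), and in old mice they were lower as well but within 1.5-fold (18.9 and 13.2, 7.06 and 6.39, 5.99 and 5.02, 5.81 and 4.84). The exceptions were miR-709, which was higher on CR in young mice (4.83 and 5.78), and miR-463-3p, which was higher on CR in old mice (2.30 and 3.59). Among miRNAs above the floor on both arrays, the young pair had 0 higher and 24 lower of 103, with a median log2 ratio of -0.18. The old pair had 2 higher and 11 lower of 177, with a median of -0.24. A lower signal on CR was thus common in both pairs and not particular to the 10 rises. Over the 111 miRNAs the middle-aged ratio correlated at -0.24 with the young and at 0.05 with the old ratio of CR to AL. With 1 array a side none of these differences between ages could be tested.

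The GC content of the mature strand varied with the ratio. Of the 111 miRNAs above the floor, 89 (80.2%) had a sequence in RefSeq, and over these the Spearman correlation of GC content with the log2 ratio was -0.375. The median GC content was 40.9% in the rises, 45.5% in miRNAs within 1.5-fold and 47.8% in the falls. The 30 strands with a GC content of 50.0% or more had a median log2 ratio of -0.50, with 1 higher and 13 lower, and the 36 with 40.9% or less had 0.06, with 7 higher and 10 lower. The sequences show the extremes: miR-346-3p has a GC content of 77.3% and miR-499-5p of 33.3%, though miR-142a-3p, the largest fall, has 34.8% and miR-24-3p, the largest rise, 54.5%. Strands of equal seed share much of their base composition, and these points share 2 arrays.

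**Figure D5:**
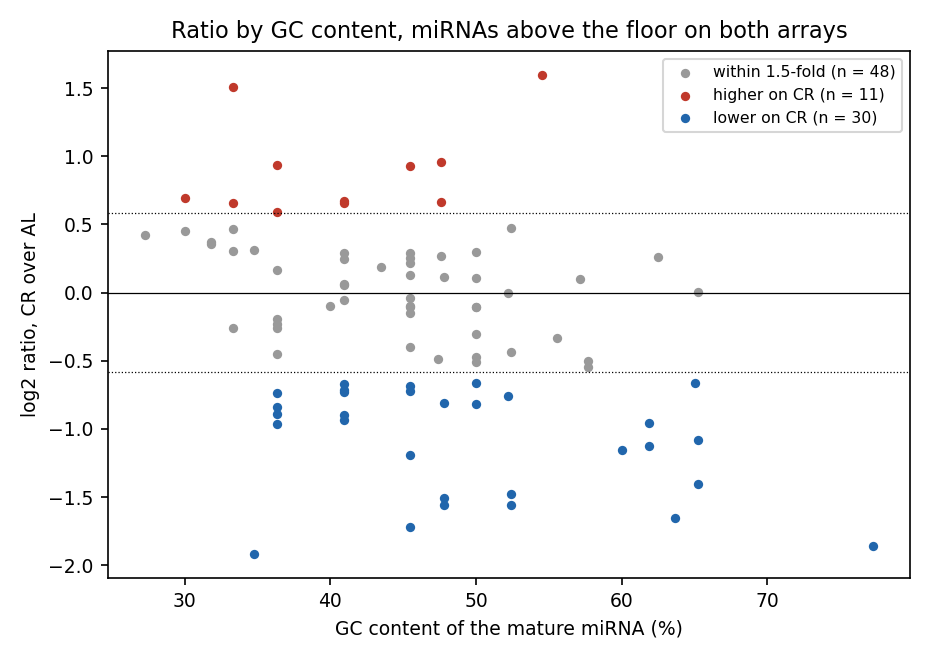
Log2 ratio of CR to AL (y axis) against the GC content of the mature strand (x axis, %) for the 89 miRNAs above the floor on both middle-aged arrays with a RefSeq sequence. Red points are higher and blue points lower by 1.5-fold or more on CR, and dotted lines mark 1.5-fold. Of the 30 strands with 50.0% or more, 13 are blue and 1 is red.

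Strands of 1 hairpin and features for the same miRNA gave a check within the arrays. For 60 hairpins both arms had a value on both arrays, and the log2 ratios of the arms had the same sign in 30, were both called higher in 5 and lower in 1, and were called in opposite directions in 7. The Pearson correlation was -0.10, and in 4 of the hairpins both arms were above the floor. There were 6 pairs of features for the same miRNA. The 3 bright pairs differed by 0.16 (miR-101a-3p), 0.20 (miR-378a-3p) and 0.36 (miR-378b) on the log2 scale, and the 3 dim pairs by 0.26 (miR-374b-5p), 0.92 (miR-28a-5p) and 2.46 (miR-466a-5p).

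The 275 miRNAs with a value on CR alone were all dim. Their CR signals ran from 0.000797 to 0.465 with a median of 0.0462, and 0 of them reached the floor. The highest were miR-871-3p (0.465), miR-3090-3p (0.450), miR-3064-3p (0.429), miR-32-5p (0.413), miR-375-3p (0.392), which is known from pancreatic islets, and miR-33-5p (0.377), which lies in a gene of sterol regulation. Since AL gave no value, no ratio was taken. Of the 275, 270 had a value on AL of old mice and 158 on AL of young mice, and 82 on neither young array. Features of other kinds appeared on CR alone too, 488 of 2272 unnamed features (21.5%), 7 of 55 viral miRNAs, 7 of 62 spike-ins and 7 of 22 small nuclear and nucleolar RNAs, beside 24.7% of mouse miRNAs. The share of mouse miRNAs was thus near that of unnamed features.

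The largest ratios of all 420 miRNAs lay below the floor, with miR-490-5p at 0.000782 and 0.154, miR-34b-5p at 0.00469 and 0.309, and, in the other direction, miR-130b-3p as given above. The small nuclear and nucleolar RNAs that often serve as references had a median log2 ratio of -0.22 over 10 features. Of the features for U6, an RNA of the spliceosome, the brighter was 14.2 on AL and 11.0 on CR and the other 0.830 and 1.17, both within 1.5-fold, while SNORD44 was 1.13 and 0.723 and SNORD38B was 0.0594 and 1.06.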

How the data were processed

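Array signals were deposited by the authors as intensity values, normalized by them and above 0, with blanks where a feature had no value. Per the labels and methods, 1 µg of total RNA per pool was labelled with Hy3, hybridized to miRCURY LNA arrays (v.18.0), scanned on a GenePix 4000B and extracted in GenePix Pro 6.0. No source used here gives the method of normalization, the background correction or any use of spike-ins. The series' value table carried identical values. No depth exists for arrays, and 1 array per group limits the precision.

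Ratios of CR to AL were taken in Python 3.11.15 (pandas 2.3.3, numpy 2.4.6) on the deposited values with no pseudocount. Quantile and cyclic loess normalization (fast method, 3 iterations) used limma 3.58.1 in R 4.3.3. Scripts were tested on simulated data. Other settings were a signal above the floor on 1 or both arrays, scaling to spike-ins or the array median, the viral median added, values on all 6 arrays, at least 60 steps of the smallest value and 2-fold. Scaling to small nuclear and nucleolar RNAs was chosen after seeing the data. Named are the members of 20 lists drawn up from general knowledge and from the study text, the 10 largest rises and falls above the floor on both arrays, the 5 largest of all, the 10 highest signals of each array and of those on CR only, and seed families of 3 or more. Members and lists were chosen with earlier results of these data known. No p-value was computed.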

Additional observations from a re-analysis of the deposited data

Results flagged for a closer look

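miR-23a-3p was drawn out because its ratio of CR to AL went opposite ways at 2 ages, with a log2 ratio of -0.5913 in young mice (5.39 on AL and 3.58 on CR) and 0.67 in middle-aged mice. Each ratio rests on 1 array a side, and the difference was not tested. Of the 10 largest rises above the floor, miR-23a-3p among them, 9 were lower on CR in young mice. A signal also appeared in features that the comparisons did not use: 488 unnamed features had a value on the CR array of middle-aged mice and none on AL.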

How the results depend on the processing

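With a signal above the floor asked for on at least 1 array, 23 miRNAs were higher and 43 lower, with a median log2 ratio of -0.042, an SD of 0.825 and a median of -0.686 for the X-linked cluster. With both arrays above it these were 12, 34, -0.19 and 0.712, with a median of -0.12 for the muscle list. Against the median of 0.30 as deposited, the median was 0.14 after quantile normalization, 0.13 after loess, 0.70 after spike-in scaling (236 higher, 46 lower), 0.19 with each array divided by its median, 0.11 with the viral median added (84 higher, SD 0.727) and 0.52 after scaling to small nuclear and nucleolar RNAs (197 higher, 56 lower). The SD of miRNAs and of spike-ins was 1.27 and 0.512 after quantile and 1.18 and 0.475 after loess normalization. At 2-fold, 107 miRNAs were higher and 46 lower.

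The medians of the endothelial, red cell, miR-378, imprinted and embryonic stem cell lists also changed sign under some scalings, as given with each, and that of the white cell list under both floors. Changes of sign in single miRNAs were listed for the 175 named miRNAs only. Of those called as deposited, the ones that changed sign were all below the floor. After quantile and loess normalization they were -0.443 and -0.419 for miR-106b-3p, -1.25 and -1.55 for miR-23a-5p (-0.068 with the viral median added), -0.718 and -0.863 for miR-363-5p, -0.303 and -0.21 for miR-487b-5p, -0.062 and -0.311 for miR-494-5p, -0.152 and -0.378 for miR-679-5p, and -0.752 and -0.928 for miR-92a-2-5p, and the miR-17-92 median was -0.013 after quantile normalization. The cause was not tested. Of the miRNAs higher on CR as deposited, 98 stayed higher after quantile and 95 after loess normalization, and of those lower, 58 and 57. Of the miRNAs on CR alone, 0 were above the floor.

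No paired analysis was possible because each group is 1 array of pooled tissue, and for the same reason no replicate could be left out. Averaging of repeated features was not needed, since each identifier had 1 row. Signals below the floor carry little order, and the call of a bright miRNA within 1.5-fold of the threshold can turn on the scaling.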
